A study of Rattus rattus with 23 samples.

Results

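The 10 genes described here belong to the inflammatory response, measured in the nasal epithelium of rats that inhaled hydrogen sulfide (H2S): the cytokines Il1a, Il1b, Il6 and Tnf, the chemokines Cxcl1, Cxcl2, Ccl2 and Ccl20, the NF-kB inhibitor Nfkbia and the NF-kB target Sod2. They are 10 of the 14217 genes that have a probe set of their own on the array, and their probe sets were taken by gene symbol. The genes were chosen with earlier results of these data known. The platform's probe table assigned 12 probe sets to them, 2 each for Il1a and Tnf and 1 for every other gene. Of the 12, 8 passed the filter on low signals (a signal over the array's median in 3 or more animals) and were tested. The other 4 are the only probe sets of Cxcl2 and Il6 and a second probe set each of Il1a and Tnf, and they are given as values with no model test.

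Interleukin-1 (IL-1, from Il1a and Il1b) and tumour necrosis factor (Tnf) bind receptors that activate the IKK kinases. These mark IkB-alpha, the product of Nfkbia, for degradation, which frees NF-kB to enter the nucleus. NF-kB then raises transcription of cytokines, of chemokines that draw neutrophils (Cxcl1, Cxcl2), monocytes (Ccl2) or CCR6-bearing lymphocytes and dendritic cells (Ccl20), of the mitochondrial superoxide dismutase Sod2, and of Nfkbia itself, which ends the signal. Airway epithelium is known both to make these factors and to respond to them, and Il1a is stored in surface epithelial cells and released when they are damaged. H2S is an irritant gas that blocks mitochondrial respiration and damages nasal epithelium.

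Male Sprague-Dawley rats breathed air or 200 ppm H2S through the nose for 3 h per day, and respiratory epithelium at the place of injury and regrowth was laser captured, with 1 array for each of 23 animals. After a single exposure to H2S, 4 animals were taken 3 h after its start, 3 animals at 6 h and 4 animals at 24 h, beside 4 air animals at 24 h. After exposure on 5 days, H2S (n = 4) and air animals (n = 4) were sampled 144 h after the first start. No air group was sampled at 3 h or 6 h, so those groups are set against air at 24 h, and these 4 air animals serve as controls for all times of single exposure. The labels conflict in places: the protocols of animals 6 (H2S, 3 h), 14 (H2S, 24 h) and 18 (air, 24 h) name 5 days of exposure against their titles, ages are given as 60 days and as 10 weeks, and the organism is named as Rattus rattus beside the Sprague-Dawley strain. Titles were followed for the groups.

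The arrays of animal 18 (air, 24 h) and animal 22 (air, 144 h) stood apart. Their median correlations with the other arrays were 0.431 and 0.697, against 0.821 to 0.905 for the remaining 21 arrays, and their control probe sets were 122.7 and 27.95 times as bright as on the median array. Array medians ran from 136 to 341 units of signal. RNA integrity numbers at 144 h were 1.7 to 5.1 in H2S and 5.1 to 6.9 in air animals, ranges that met only at 5.1. The filter kept 11 of 11 measured epithelial and 10 of 10 measured stroma and vessel markers, beside 11249 of 14217 genes, so these counts say little on the label of epithelium. The brightest of each list by median signal, Epcam and Col1a2, were above the array's median on all 23 arrays. The markers above it on the fewest arrays were Muc5ac (21) and Pecam1 (7). The captured tissue thus held other cells beside epithelium. In such tissue, fewer cells of a type and less RNA per cell cannot be told apart.

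Levels are given as log2(signal + 16), as mean ± SD over animals, and a group mean under 6 on this scale (a signal of 48) is called low. A change is a difference of group means on the same scale, which understates changes of dim probe sets, and levels of different probe sets are not comparable with each other. Changes carry the standard error (SE) and adjusted p of a limma fit over 19822 probe sets, with a threshold of 0.05.

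**Figure D1:**
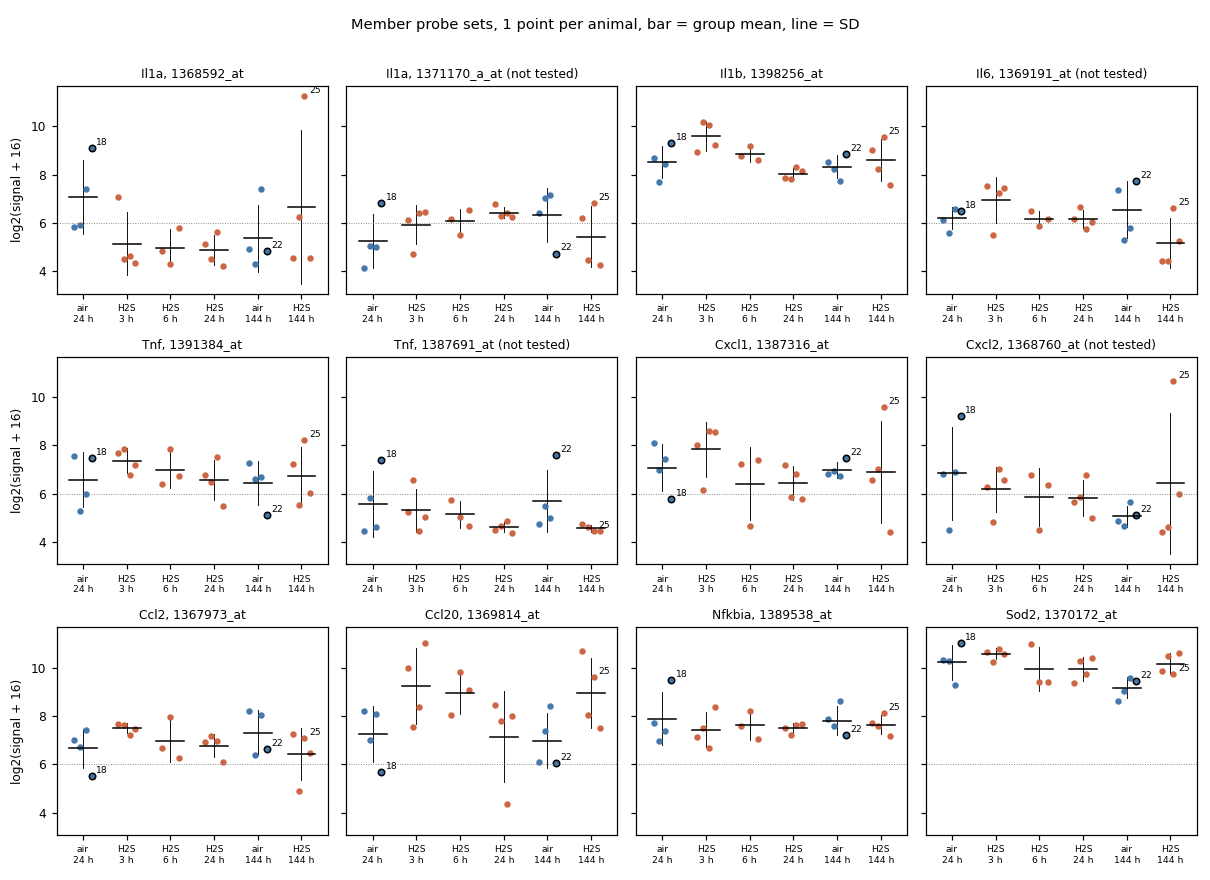
Levels of the 12 probe sets as log2(signal + 16) on the vertical axis, with 1 panel for each probe set and 1 point for each animal in the 6 groups. Bars are group means, thin lines 1 SD, the dotted line marks the low level of 6, black rims mark animals 18 and 22, and numbers name animals 18, 22 and 25. The 4 H2S animals of 144 h reach from 4.54 to 11.28 for Il1a (1368592_at), the widest spread of its 6 groups.

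No member passed the threshold in any of the 8 comparisons of means or in the test across the 6 groups. At 3 h, the mean was higher than in air for 6 of the 8 tested members, by 0.35 to 1.97, and lower for Il1a and Nfkbia. The median change of the 8 was 0.78, beside 0.09 over all probe sets tested, of which 55.4% were higher. Ccl20 (1.97) and Il1b (1.07) had an unadjusted p under 0.05, 2 of 8 where 9.8% of all probe sets did, and 0.0807% of all probe sets passed the adjusted threshold. Il1a (1368592_at) passed the filter only through animals 17, 18 and 25, so counts and medians over the 8 depend on those animals. With animals 18 and 22 left out, Il1a was no longer kept, and its 3 remaining air animals (5.86, 5.90 and 7.42) were still above 3 of the 4 exposed ones. The 7 members kept had higher means, with a median change of 0.61, and only Il1b had an unadjusted p under 0.05, beside 9.78% of all probe sets.

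At 6 h, 4 of 8 tested members had higher means, the median change was 0.02, and none had an unadjusted p under 0.05, beside 5.81% of all probe sets and 0.00504% past the adjusted threshold. At 24 h, 1 of 8 had a higher mean (Ccl2, 0.12), the median change was -0.33 beside 0.07 over all probe sets, and none had an unadjusted p under 0.05, beside 8.09% of all and 0.0101% past the adjusted threshold. At 144 h, 5 of 8 had higher means, and the median change was 0.30 beside -0.02 over all probe sets. Ccl20 and Sod2 had an unadjusted p under 0.05, 2 of 8 beside 7.8% of all probe sets. No probe set at all (0%) passed the adjusted threshold at 144 h. Sod2 (1.09) and Ccl2 (-1.11) had an unadjusted p under 0.05 at 144 h when animals 18 and 22 were left out, 2 of 7 members beside 12.6% of all probe sets. In that fit 4 of 7 members had higher means at 144 h, with a median change of 0.07 beside -0.02 over all probe sets.

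**Figure D2:**
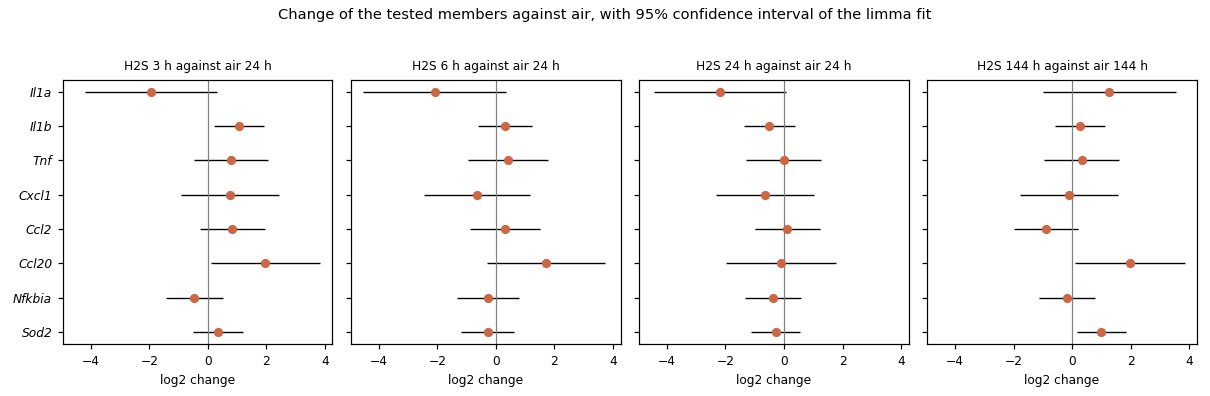
Change of the 8 tested members (rows) against air on the log2 scale (horizontal axis), with 1 panel for each of the 4 comparisons. Points are differences of group means, and lines are 95% confidence intervals of the limma fit, not adjusted over probe sets. The intervals of Il1b (0.20 to 1.93) and Ccl20 (0.10 to 3.84) lie above 0 at 3 h, and those of Ccl20 (0.10 to 3.84) and Sod2 (0.16 to 1.84) at 144 h.

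Il1b (1398256_at), the secreted form of IL-1 made mainly by myeloid cells, had its highest group mean at 3 h. In air animals of 24 h its levels were 8.68, 7.72, 8.44 and 9.33 (animals 15, 16, 17 and 18). At 3 h they were 8.95, 10.17, 10.08 and 9.25 in the H2S animals 3, 4, 5 and 6. All 4 exposed animals were thus above the air animals 15, 16 and 17, while air animal 18 was above 2 of them. The change was 1.07 (SE 0.42, adjusted p = 0.435, exact permutation p = 0.0857, two-sided), a fold of 2.09 on this scale. Without animals 18 and 22 the groups did not overlap, the change was 1.33 and the adjusted p was 0.307. Non-overlap was then seen in 9.83% of all probe sets, against 4.58% with all arrays, where no tested member was free of overlap at 3 h.

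After 3 h, Il1b levels were lower at each later time of single exposure. At 6 h they were 8.76, 9.21 and 8.60 (8.86 ± 0.31), and at 24 h 7.86, 7.84, 8.32 and 8.15 (8.04 ± 0.23), the lowest of the 6 group means. Every animal of 24 h was below every animal of 6 h, a change of -0.81 with an adjusted p of 1 and an exact permutation p of 0.0286, the smallest that 4 animals against 3 allow. Il1b was the only tested member without overlap in that step, where 6.53% of all probe sets had none, 3.06% an unadjusted p under 0.05 (0 of 8 members) and 0.0101% passed the threshold. From 3 h to 6 h Il1b changed by -0.75 (SE 0.45, adjusted p = 1) with overlapping groups. In that step 1 of 8 members had a higher mean, 0 of 8 had an unadjusted p under 0.05 (4.21% of all; 0.00504% past the threshold), and none was free of overlap (6.94% of all). The order of Il1b means was H2S 3 h, 6 h and 144 h, air 24 h and 144 h, then H2S 24 h, and only the first step of 0.75 was larger than the greater SD of its neighbours (0.61).

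At 144 h, Il1b spread more widely than in the air animals of that time. Exposed animals 23, 24, 25 and 26 had 9.02, 8.25, 9.55 and 7.59, and air animals 19, 20, 21 and 22 had 8.51, 8.26, 7.74 and 8.84. The groups overlapped throughout, and the change was 0.27 (SE 0.42, adjusted p = 0.912). Leaving out animal 25 put it at -0.05.

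Il1a, the IL-1 form held in epithelial cells, was dim and gave opposite pictures on its 2 probe sets. The tested probe set, 1368592_at, exceeded its array's median on 3 of 23 arrays, in animals 17, 18 and 25, and was low in 4 of 6 groups. Air animals of 24 h had 5.86, 5.90, 7.42 and 9.11 (7.07 ± 1.54). H2S animals had 7.08, 4.50, 4.64 and 4.33 at 3 h, 4.86, 4.31 and 5.79 at 6 h, and 5.15, 4.53, 5.63 and 4.24 at 24 h. All exposed animals of 6 h and of 24 h lay below all 4 air animals, at 6 h with 5.79 against 5.86 as the nearest pair, and Il1a was the only tested member of 8 without overlap there, beside 4.51% and 3.79% of all probe sets. As it passed the filter in these comparisons only through air animals 17 and 18 and exposed animal 25 of 144 h, nothing is read from that count.

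Changes of Il1a (1368592_at) were -1.94 at 3 h (SE 1.09, adjusted p = 0.553), -2.08 at 6 h (SE 1.18, adjusted p = 0.781) and -2.19 at 24 h (SE 1.09, adjusted p = 0.612). The exact permutation p at 24 h was 0.0286, two-sided and the smallest 4 against 4 can give. It restates the non-overlap, from which nothing is read. The second Il1a probe set, 1371170_a_at, was above its array's median on no array, and its changes were 0.67, 0.81 and 1.18 at the same times. Its 4 air animals of 24 h had signals of 1.82 to 97.9 units. Over 23 arrays the Pearson r between both Il1a probe sets was 0.21, a description of dim signals on shared arrays. The data thus give no common direction for Il1a.

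At 144 h, 1 animal set the mean of Il1a (1368592_at). Exposed animal 25 was at 11.28, a signal of 2466, and its group mates 23, 24 and 26 were at 4.56, 6.24 and 4.54. The 4 air animals had 4.95, 4.32, 7.42 and 4.84. The change of 1.28 (SE 1.09, adjusted p = 0.804) thus rested on animal 25, whose next group mate was at 6.24. The difference between the exposure effects of 144 h and 24 h was 3.46 (SE 1.55, unadjusted p = 0.0354, adjusted p = 0.946) on this probe set and -2.07 on the second.

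Tnf, the cytokine that activates NF-kB through TNF receptors, was dim on both probe sets. On 1391384_at, which exceeded its array's median on 6 of 23 arrays, air animals of 24 h had 7.58, 5.28, 5.97 and 7.48, and H2S animals of 3 h had 7.70, 7.87, 6.76 and 7.17. The groups overlapped, with a change of 0.80 (SE 0.62, adjusted p = 0.654). Group means ran from 6.43 ± 0.91 in air at 144 h to 7.37 ± 0.51 at 3 h, and no step between neighbours in their order exceeded the greater SD. Changes at 6 h, 24 h and 144 h were 0.41, -0.01 and 0.33, with adjusted p of 0.867, 0.996 and 0.928. The highest level of all 23 animals was that of exposed animal 25, at 8.20. The other Tnf probe set, 1387691_at, was low in all 6 groups, and its 2 brightest arrays were those of animals 22 (7.59) and 18 (7.40). Its changes were -0.26, -0.43, -0.96 and -1.14 at 3 h, 6 h, 24 h and 144 h. At 144 h its groups did not overlap, with signals of 5.71 to 10.6 units in exposed and 10.7 to 176 in air animals. Nothing is read from signals this low, and the probe sets give no common direction for Tnf.

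Il6 (1369191_at), a cytokine induced by IL-1 and Tnf, was above its array's median on no array and was not tested. Its levels at 3 h were 7.54, 5.51, 7.26 and 7.47, and in air at 24 h 6.11, 5.58, 6.58 and 6.50. At 3 h 3 of 4 exposed animals were above all air animals and animal 4 was below them all, for a difference of means of 0.75 (exact permutation p = 0.229, two-sided). At 144 h exposed animals had 4.45, 4.42, 6.61 and 5.27, and air animals 7.39, 5.32, 5.79 and 7.73. The difference there was -1.37 (exact p = 0.114), and the exposed group was the only low one.

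Among the chemokines, Ccl20 (1369814_at) had the largest difference of means from air at 3 h, 6 h and 144 h, and the smallest at 24 h. In air its levels were 8.21, 7.03, 8.08 and 5.69 at 24 h and 6.08, 7.39, 8.41 and 6.06 at 144 h. Exposed animals had 9.99, 7.53, 8.35 and 11.03 at 3 h, 8.03, 9.83 and 9.06 at 6 h, 8.43, 7.79, 4.36 and 8.01 at 24 h, and 10.67, 8.02, 9.61 and 7.52 at 144 h. At 3 h, 3 of 4 exposed animals exceeded every air animal of 24 h, and at 6 h 2 of 3 did. At 144 h, 2 of 4 exposed animals exceeded every air animal of that time. The groups overlapped in each case.

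The change of Ccl20 was 1.97 at 3 h (SE 0.90, adjusted p = 0.493), a fold of 3.92, and 1.72 at 6 h (SE 0.98, adjusted p = 0.781). It was -0.11 at 24 h (SE 0.90, adjusted p = 0.976) and 1.97 at 144 h (SE 0.90, adjusted p = 0.636), again a fold of 3.92. The sign at 24 h was not stable to single animals: without exposed animal 13, at a signal of 4.5 units the dimmest of all 23, the change was 0.83, and without air animal 15 or 17 it was 0.22 or 0.17. Without animals 18 and 22 it was 1.45 at 3 h (adjusted p = 0.658) and 1.66 at 144 h (adjusted p = 0.489). In the order of means, H2S 3 h, 6 h and 144 h (9.23, 8.97 and 8.96) stood above air 24 h, H2S 24 h and air 144 h (7.25, 7.15 and 6.98). The step of 1.70 between these sets of groups was the only one larger than the greater SD of its neighbours (1.45).

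Cxcl1 (1387316_at), a neutrophil chemoattractant, exceeded its array's median on 7 of 23 arrays, 3 of them at 3 h. Levels there were 8.03, 6.16, 8.58 and 8.56, beside 8.10, 6.97, 7.44 and 5.78 in air at 24 h. The groups overlapped, and the change was 0.76 (SE 0.81, adjusted p = 0.751). At 6 h and 24 h it was -0.65 at both times (adjusted p = 0.838 and 0.791), and the 6 h mean held animal 9 at 4.66 beside 7.23 and 7.37. At 144 h exposed animals ran from 4.42 (animal 26) to 9.60 (animal 25), the lowest and the highest of all 23, around air animals at 6.74 to 7.47. The change was -0.09 (SE 0.81, adjusted p = 0.988) with all animals and -0.99 without animal 25.

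Cxcl2 (1368760_at), also a ligand for neutrophils, exceeded its array's median on 2 of 23 arrays and was not tested. Those were the arrays of exposed animal 25 (144 h), at 10.67 or a signal of 1619, and of air animal 18 (24 h), at 9.21. The other 3 exposed animals of 144 h had 4.41, 4.60 and 6.00, and the 4 air animals of that time 4.65 to 5.65. At 3 h the levels were 6.29, 4.82, 7.01 and 6.57, and in air at 24 h 6.81, 4.49, 6.89 and 9.21. The mean difference at 3 h was -0.68 with all animals and 0.11 without animals 18 and 22.

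Ccl2 (1367973_at), which attracts monocytes, exceeded its array's median on 5 of 23 arrays and had its tightest group at 3 h. Its levels there were 7.69, 7.61, 7.22 and 7.45 (7.49 ± 0.21), beside 6.99, 6.73, 7.40 and 5.50 in air at 24 h (6.66 ± 0.82). Air animal 17 lay within the exposed range, and the change was 0.84 (SE 0.53, adjusted p = 0.598, exact p = 0.0571). At 144 h exposed animals had 7.25, 4.89, 7.08 and 6.47 and air animals 8.19, 6.39, 8.03 and 6.62. The change was -0.89 (SE 0.53, adjusted p = 0.700), and -0.37 without exposed animal 24. At 6 h and 24 h it was 0.32 and 0.12, with adjusted p of 0.886 and 0.949.

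Nfkbia (1389538_at), whose product holds NF-kB in the cytoplasm, had the smallest variation between groups of the tested members by the F test (unadjusted p = 0.916, adjusted p = 0.976). Group means lay between 7.42 ± 0.72 at 3 h and 7.89 ± 1.10 in air at 24 h, and no step in their order exceeded the greater SD. At 3 h the levels were 7.14, 7.48, 6.68 and 8.39, and in air at 24 h 7.70, 6.98, 7.38 and 9.48. The highest of all 23 was air animal 18. The changes against air were -0.46, -0.27, -0.38 and -0.17 at 3 h, 6 h, 24 h and 144 h, with adjusted p of 0.729, 0.888, 0.788 and 0.954. Over the 21 other arrays they were 0.07, 0.26, 0.15 and -0.37. The 95% confidence interval at 3 h, -1.43 to 0.50, leaves room for changes of either direction.

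Sod2 (1370172_at), the manganese superoxide dismutase of mitochondria, was above the array median in every animal. Exposed animals of 144 h had 9.85, 10.47, 9.75 and 10.62 (10.17 ± 0.44), all above the air animals of that time at 8.64, 9.02, 9.58 and 9.43 (9.17 ± 0.43). Sod2 was the only tested member of 8 whose groups did not overlap at 144 h, where 5.93% of all probe sets did not. The change was 1.00 (SE 0.41, unadjusted p = 0.0215, adjusted p = 0.603), a fold of 2.00, and the exact permutation p was 0.0286, two-sided. All 4 exposed RNA integrity numbers were at or below the air numbers at that time. With that number as a covariate, over the arrays that have one, the change was 0.95 (SE 0.48, adjusted p = 0.655), against 1.00 on the same arrays without it. As the exposed and air numbers barely met, exposure and RNA integrity cannot be told apart at 144 h.

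The air groups of Sod2 themselves differed in mean, though they overlapped. Air animals of 24 h had 10.31, 10.28, 9.27 and 11.01, against which air at 144 h was lower by a change of -1.05 (SE 0.41, unadjusted p = 0.0166, adjusted p = 0.572), with overlap through animal 17. The exposed mean of 144 h (10.17) was therefore near that of air at 24 h (10.22). In the order of the 6 group means, only the last step, 0.77 from H2S 24 h to air 144 h, was larger than the greater SD of its neighbours (0.49). Sod2 was the only 1 of 8 members with an unadjusted p under 0.05 between the air groups, beside 8.37% of all probe sets (0% past the threshold). No tested member was free of overlap there, beside 2.09% of all. Without animal 18 the Sod2 change between the air groups was -0.78. Without animals 18 and 22, 0 of 7 members had an unadjusted p under 0.05 between them, beside 4.52% of all probe sets. In the first 24 h the Sod2 levels were 10.66, 10.25, 10.79 and 10.56 at 3 h, 10.99, 9.41 and 9.42 at 6 h, and 9.36, 10.29, 9.72 and 10.39 at 24 h. All overlapped with air at 24 h, with changes of 0.35, -0.28 and -0.28 (adjusted p = 0.772, 0.866 and 0.825).

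The exposure effect at 144 h was also set against that at 24 h. Il1a (3.46) and Sod2 (1.28, SE 0.57, unadjusted p = 0.0358, adjusted p = 0.946) had an unadjusted p under 0.05, as 4.69% of all probe sets did, and 0% passed the adjusted threshold. Nothing is read from Il1a here, which passed the filter only through animals of 2 groups that enter this difference with the same sign. No member had one when animals 18 and 22 were left out. In the F test across the 6 groups, Il1b (unadjusted p = 0.0230) and Sod2 (0.0493) were the 2 of 8 under 0.05, beside 7.76% of all probe sets and 0.0605% past the adjusted threshold. Ccl20 had an F test p of 0.0501.

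Exposed animal 25 of 144 h held the highest level of all 23 animals on 4 of the 12 probe sets: Il1a (1368592_at), Cxcl1, Cxcl2 and Tnf (1391384_at). Its Il1b (9.55) and Ccl20 (9.61) were also above every air animal, while Sod2 (9.75) was the lowest of its group. Over its group mean it stood higher on 10 of 12 probe sets. Its array did not stand apart by correlation (median 0.858) or control brightness (1.18 times the median array), and its RNA integrity number was 4.5. Air animal 18 was highest on 2 probe sets, Nfkbia and Sod2.

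**Figure D3:**
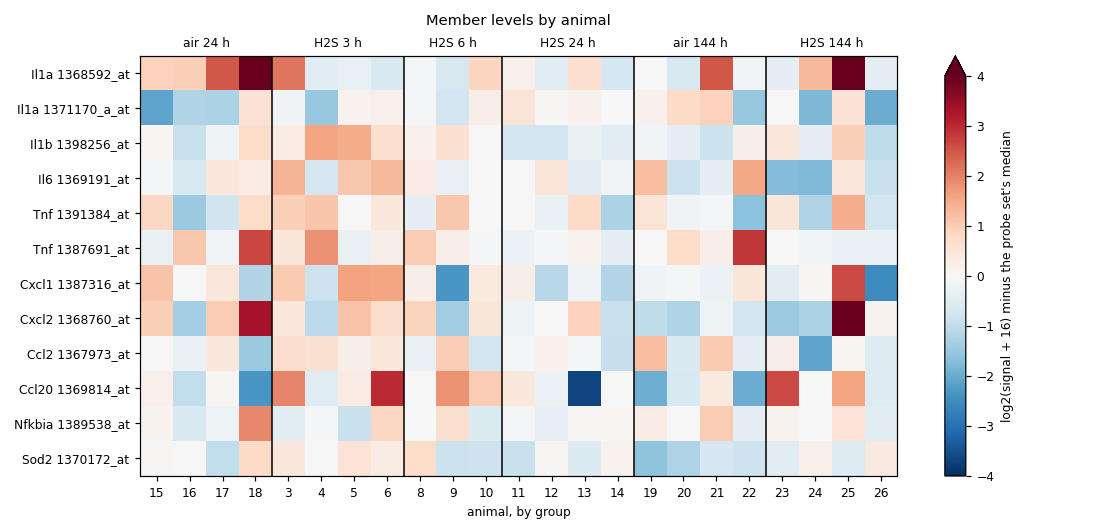
Level of each member probe set (rows) in each of the 23 animals (columns, by group), as log2(signal + 16) minus the median of that probe set over all animals. Red is above and blue below the median, and values past 4 share the darkest red. Animal 25 has the highest level of Il1a (1368592_at, 11.28) and Cxcl2 (10.67), and exposed animal 13 is the lowest for Ccl20 (4.36).

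The genes most like each member over the 23 arrays were named by the highest Pearson r of their log2 levels. These values describe shared arrays, groups and single high animals, and the names depend on the arrays: over the 21 arrays without animals 18 and 22, none of the 3 genes named for Il1b, Ccl2 or Nfkbia was among the nearest 3, and 1 of 3 was for Tnf and Sod2. For Il1b they were Clec7a (0.748), a myeloid receptor for fungal glucans, Tnfrsf1b (0.714), a TNF receptor, and S100a9 (0.697), a calcium-binding protein abundant in neutrophils. For Tnf they were Rhbdf2 (0.787), which is needed for release of Tnf from the membrane, the survival factor Bcl2a1 (0.700) and Snx15 (0.699). For Ccl20 they were the transcription factor Klf6 (0.774), Depp1 (0.714) and cytidine deaminase Cda (0.701).

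Il1a was most like S1pr5 (0.810), Sprr3 (0.801) and Tmem45b (0.788), and Cxcl1 most like the keratin Krt7 (0.778), the gasdermin Gsdma (0.759) and the keratin Krt23 (0.747). In animal 25 the level of Sprr3, a cornified envelope protein of squamous epithelium, was 13.85, and no other animal was above 8.58. For Ccl2 the nearest genes were LOC103691468 (0.749), Zfp521 (0.734) and A2m (0.725), and for Sod2 Naa20 (0.809), Mrpl47 (0.723) and Pes1 (0.707). Nfkbia was most like Nr1h3 (0.83), Ptk7 (0.803) and Hinfp (0.788), each of which was highest in air animal 18. Over the 21 arrays these last 3 values were 0.697, 0.618 and 0.633. The nearest genes over the 21 arrays were Sirt7 for Il1b (0.788), Tpbgl for Ccl2 (0.837), Celf2 for Tnf (0.807), Stx5 for Nfkbia (0.746) and Fgl1 for Sod2 (0.825). Between members, Il1a (1368592_at) and Cxcl2 had the highest r, 0.768, and 0.284 over the 20 arrays without animals 18, 22 and 25. For Il1b and Tnf (1391384_at) r was 0.566, and 0.589 over those 20 arrays.

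The wider pathway was followed in 5 lists of ligands, receptors, NF-kB signalling genes, inhibitors and other NF-kB targets. They name 127 genes, of which 111 were on the array and 90 were tested. None of the 90 passed the adjusted threshold in either direction in any of the 8 comparisons. At 3 h, 67 of 90 had a higher mean than in air, the median change was 0.39 beside 0.09 over all probe sets, and 23 (25.6%) had an unadjusted p under 0.05, where 9.8% of all probe sets did. Of the 23, 19 were higher, beside 6% of all probe sets in that direction. The counts without animals 18 and 22 were 68 of 86 and 22 of 86 (25.6%), 21 of them higher, beside 9.78% of all probe sets.

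By list, the median change at 3 h was 0.75 for 16 receptors and decoys, 0.66 for 20 other targets, 0.31 for 22 signalling genes, 0.29 for 20 ligands and 0.17 for 12 inhibitors. The smallest p was that of Ptgs2, the inducible cyclooxygenase, named here after its values were seen, at 8.40 ± 0.74 against 6.19 ± 1.12 (change 2.21, SE 0.51, adjusted p = 0.132), with overlapping groups. Without overlap and next in p were Traf2, an adaptor of TNF receptors (1.59, SE 0.45, adjusted p = 0.285), Gadd45b, a stress-induced NF-kB target (1.49, SE 0.43, adjusted p = 0.302), Cd14, the endotoxin co-receptor (2.35, SE 0.68, adjusted p = 0.302), and the chemokine Cxcl16 (2.00, SE 0.61, adjusted p = 0.334). Of 90 genes, 9 were free of overlap, beside 4.58% of all probe sets. Cd14 was 10.40 to 11.32 in exposed and 5.80 to 10.05 in air animals, Cxcl16 10.38 to 11.53 and 6.14 to 10.12, and Traf2 8.59 to 9.02 and 5.65 to 8.10. The air SDs of Cd14, Cxcl16 and Traf2 (1.86, 1.90 and 1.06) exceeded those of exposed animals (0.47, 0.61 and 0.19), so low air values enlarge these changes. Gadd45b spread less in air (SD 0.32) than in exposed animals (0.77).

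Ligands split at 3 h, with names outside the rule given after their values were seen: 3 had a higher mean with an unadjusted p under 0.05 (Cxcl16, Il18 and Cxcl9) and 3 a lower one (Cxcl12, Ccl11 and Cxcl10). Cxcl12, a chemokine of stromal cells, was 10.59 ± 0.26 against 11.84 ± 1.05 (change -1.24, adjusted p = 0.381). It was called at 3 h without animals 18 and 22, where 24 of 19036 probe sets were called. The eosinophil chemokine Ccl11 had a change of -1.60 and the interferon-induced Cxcl10 of -1.31 (both with an adjusted p of 0.50). The NF-kB subunits Nfkb1 and Rela had changes of 0.16 and -0.12 at 3 h, and the feedback inhibitor Tnfaip3 of 0.39, with adjusted p of 0.870, 0.895 and 0.776. Among receptors for the members, Il1r1 had 0.02, the decoy Il1r2 1.49, Tnfrsf1a -0.10 and the Ccl20 receptor Ccr6 0.88 (adjusted p = 0.986, 0.503, 0.953 and 0.747).

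**Figure D4:**
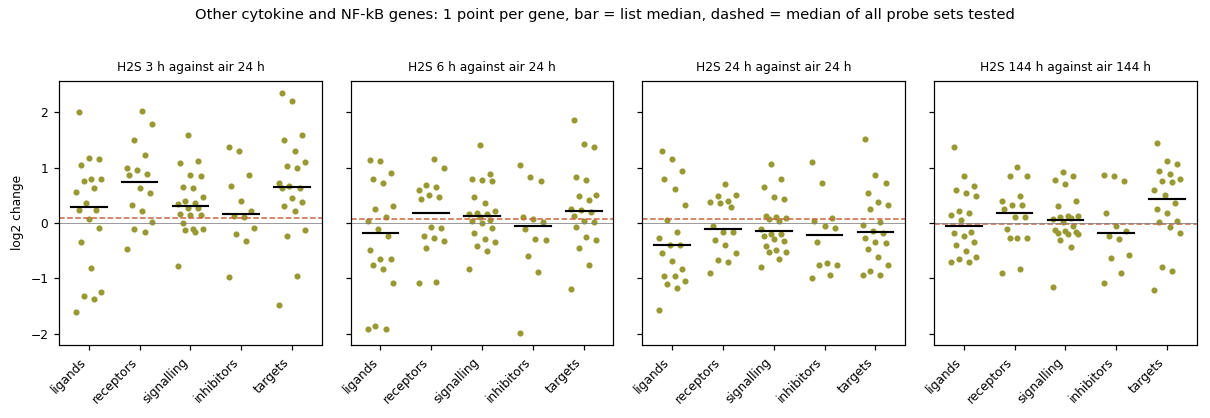
Change against air on the log2 scale (vertical axis) of the 90 other cytokine and NF-kB genes, with 1 point for each gene in 5 lists and 1 panel for each comparison. Bars are list medians and the dashed line is the median of all probe sets tested. At 3 h all 5 list medians (0.17 to 0.75) are above the median of all probe sets (0.09), and at 24 h all 5 are below it.

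At 6 h, 52 of 90 genes of the pathway lists had a higher mean and 7 (7.78%) an unadjusted p under 0.05, beside 5.81% of all probe sets. Of 90 genes, 5 were free of overlap, beside 4.51% of all probe sets. Those of them with the smallest p were Ccl22 (-1.90), Ccl11 (-1.92), Ripk1 (1.41) and Cxcr3 (-1.07), each with an adjusted p of 0.781. The 6 h mean of Ccl22 was low (5.15). Ripk1 was 10.09 to 10.34 at 6 h and 5.89 to 10.08 in air (SD 1.94), so low air values enlarge its change. The count at 6 h without animals 18 and 22 was 4 of 86 (4.65%), beside 4.5% of all. At 24 h, 36 of 90 had a higher mean (median change -0.17) and 7 (7.78%) an unadjusted p under 0.05, beside 8.09% of all probe sets. The 2 of 90 without overlap, beside 3.79% of all probe sets, were the inhibitors Cyld (-0.99, adjusted p = 0.612) and Zc3h12a (-0.94, adjusted p = 0.617). At 144 h, 51 of 90 had a higher mean and 2 (2.22%) an unadjusted p under 0.05, beside 7.8% of all probe sets. Without animals 18 and 22 this count was 9 of 86 (10.5%), beside 12.6% of all. Tnfaip2, a TNF-induced gene, was 9.11 ± 0.35 in exposed and 7.67 ± 0.47 in air animals (change 1.45, SE 0.42, adjusted p = 0.580). Socs1 had a change of -0.90 (adjusted p = 0.727). These were the 2 of 90 without overlap, beside 5.93% of all probe sets.

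Between the air groups 34 of 90 had a higher mean at 144 h and 12 (13.3%) an unadjusted p under 0.05, beside 8.37% of all probe sets (5 of 86 without animals 18 and 22, 5.81%, beside 4.52% of all). Nfkb1 (-0.59) and Rela (-0.34) were the 2 of 90 free of overlap there, beside 2.09% of all. For the difference of exposure effects 56 had a higher mean and 4 (4.44%, beside 4.69% of all) an unadjusted p under 0.05. Without animals 18 and 22 these counts were 59 and 7 of 86 (8.14%, beside 4.57% of all). From 3 h to 6 h 23 of 90 had a higher mean, and all 6 (6.67%) with an unadjusted p under 0.05 were lower, beside 4.21% of all probe sets in either direction. When animals 18 and 22 were left out the count was 15 of 86 (17.4%), again all lower, beside 8.55% of all. In that step 7 of 90 were free of overlap, beside 6.94% of all probe sets. The 4 of them with the smallest p were Gadd45b (-1.24), the chemokine decoy receptor Ackr3 (-1.05), the adaptor Myd88 (-0.68) and Cxcr3 (-0.91). From 6 h to 24 h 30 of 90 had a higher mean and 1 (1.11%) an unadjusted p under 0.05, beside 3.06% of all, namely Sigirr (2.02), an inhibitor of IL-1 receptor signalling. The 6 h mean of Sigirr was low (5.31). Over the other 21 arrays the count was 5 of 86 (5.81%), beside 6.89% of all. From 6 h to 24 h 5 of 90 were free of overlap, beside 6.53% of all probe sets, among them Sigirr, Map3k8 (-1.01), Ripk1 (-0.76) and Map3k7 (-0.38). The adjusted p was 1 for all 8 of the changes named for the 2 steps.

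Markers of the cells that could carry these transcripts were followed beside them, as the mean log2 level of a list less the array's mean over all genes. The 4 kept neutrophil markers were Lcn2, S100a9, S100a8 and Camp, and Lcn2 is also on the list of other NF-kB targets. Csf3r, Mmp8 and Cxcr2 were above the array's median on 2, 1 and 0 arrays and were not kept. This level was thus not shown to follow neutrophils. At 3 h against air at 24 h, the level of neutrophil markers differed by 0.83 (exact permutation p = 0.286, two-sided; 3 of 4 kept markers higher) and that of macrophages and dendritic cells by 0.44 (exact p = 0.257; 12 of 13 higher). For general leukocyte markers the difference was 0.57 (exact p = 0.543; 8 of 8 higher), for lymphocytes 0.08 (exact p = 0.857; 5 of 8), for epithelium 0.78 (exact p = 0.0571; 10 of 11) and for stroma and vessel 0.01 (exact p = 1; 5 of 10). None of these markers passed the limma threshold. Without animals 18 and 22 neutrophil markers differed by 1.41 (exact p = 0.0571) and epithelium by 0.93 (exact p = 0.0571).

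In later comparisons, neutrophil markers were lower at 24 h than at 6 h by a difference of -1.83 (exact p = 0.0286; 0 of 4 higher), the step in which Il1b was free of overlap. At 24 h against air, macrophage and dendritic markers differed by -0.43 (exact p = 0.0286; 4 of 13 higher) and lymphocytes by -1.10 (exact p = 0.0571; 0 of 8). At 144 h against air no list had an exact p under 0.05, with neutrophils at -0.94, macrophages at -0.18 and epithelium at 0.57. Without animals 18 and 22 epithelium was at 0.95 (exact p = 0.0286). The part of these markers in the levels of the members was not tested.

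The summed signal of the 7 measured neutrophil markers was 568 to 4096 in air at 24 h, 454 to 5061 in air at 144 h, 1624 to 4407 at 3 h, 1446 to 3514 at 6 h, 796 to 1369 at 24 h and 294 to 2286 at 144 h after H2S. For the 15 measured macrophage and dendritic markers these ranges were 25756 to 57795, 17876 to 80429, 31675 to 93678, 19614 to 113871, 20916 to 36939 and 22056 to 47273. The neutrophil receptor Cxcr2 was above the array's median on no array, as were Cd52 among general leukocyte and Cd4, Gzmb and Nkg7 among lymphocyte markers. S100a8 was not above it in any animal of air 24 h or H2S 24 h. No marker was listed at 0.

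**Figure D5:**
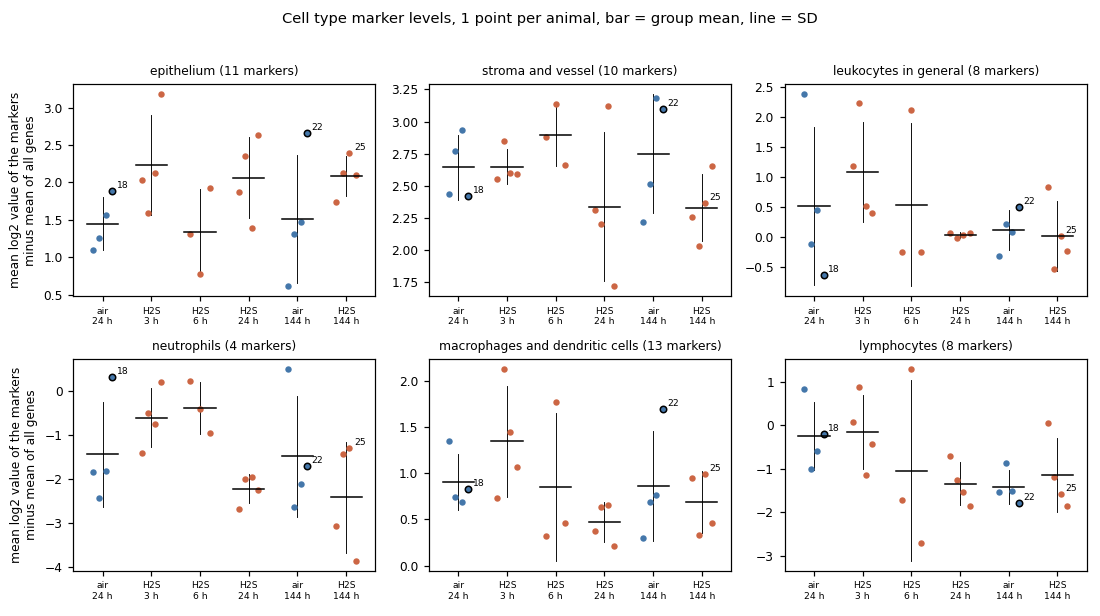
Level of 6 cell type marker lists, as mean log2 of the kept markers less the array's mean over all genes (vertical axis, own scale in each panel), with 1 point for each animal. Bars are group means, thin lines 1 SD, and black rims mark animals 18 and 22. Neutrophil markers of the 4 exposed animals of 24 h (mean -2.21) lie below all 3 animals of 6 h (mean -0.37).

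The scaling of the arrays bears on small changes. Centring every array on its own median moved the median change of all probe sets from 0.09 to 0.27 at 3 h, from 0.08 to 0.34 at 6 h, from 0.07 to 0.34 at 24 h and from -0.02 to 0.32 at 144 h. Under it the change of Sod2 at 144 h was 1.34, of Ccl20 2.31, and at 3 h that of Il1b 1.25, all of which lay above the shifted medians. Nfkbia and Cxcl1 at 144 h turned from -0.17 and -0.09 to 0.17 and 0.25, both below the shifted median. At 24 h Ccl20 and Tnf turned from -0.11 and -0.01 to 0.16 and 0.26, also below it.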

How the data were processed

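Each of 23 rats gave 1 Affymetrix Rat230_2 array of RNA amplified in repeated rounds from laser-captured tissue. The deposited intensity values are GCOS 1.0 signals per the submitters' processing notes. Their trimmed mean (2% cut from each end) was close to 500.1 on every array, so a common scaling by the authors was inferred, and no further normalization was applied. The 57 control probe sets were left out, and log2(signal + 16) was taken. Probe sets above their own array's median on at least 3 arrays were kept (19822 of 31099). Group means were fitted to all arrays with limma 3.58.1 in R 4.3.3 (lmFit, eBayes), with Benjamini-Hochberg adjustment over the kept probe sets. Single values also had a two-sided exact permutation test, whose smallest p is 0.0286 for 4 against 4 or 3 against 4 animals. The method was tested on simulated data with normal noise and planted changes larger than any of the tested members. That test does not show how well smaller changes are found. The number of arrays limits the precision.

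In the platform's annotation 20832 probe sets had 1 gene symbol, 436 several and 9831 none. For genes with several probe sets, the kept one of highest mean was used. Named are all members, the 3 genes most like each, and, of the pathway lists, genes past the threshold or else up to 4 per comparison with the smallest p and no overlap. The members and lists were chosen with earlier results of these data known. Alternatives changed the pseudocount, scaling, filter, model options, covariate and arrays used. Sequences and genome positions were not used here.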

Additional observations from a re-analysis of the deposited data

Results flagged for a closer look

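In 60 groups of 4 animals (member probe sets by group), 3 held an animal far from the other 3, where chance alone gives about 1 in 20 groups. For Il1a (1368592_at) at 3 h, H2S animal 3 was highest at 7.08, with the nearest at 4.64. For Il6 at 3 h, H2S animal 4 was lowest at 5.51, with the nearest at 7.26. For Ccl20 at 24 h, H2S animal 13 was lowest at 4.36, with the nearest at 7.79, and its RNA integrity number was 2.6. Cxcl2, which was left out of the model tests for its low signals, reached 10.67 in H2S animal 25 at 144 h, above the highest air animal at 9.21.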

How the results depend on the processing

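No paired analysis was possible because the animal numbers in the labels are unique to each animal. All 217 counts of members past the threshold stayed at 0 under the alternatives, and leaving out single animals gave 0 to 0 in every comparison. Over all probe sets, 0% to 0.0807% passed in the main fit, so counts of 0 among so few members say little about them. With array weights, 663 of 19822 probe sets passed in the test across the 6 groups. Of 181 such counts for the pathway lists, an analysis added after the data were seen, 177 stayed at 0. The count was 1 with limma array weights at 3 h and at 24 h (Cxcl12 in both) and from 3 h to 6 h (Ccl5). Over all 19822 probe sets, array weights gave 67, 52 and 110 calls in these comparisons, against 16, 2 and 1 in the main fit. The count was also 1 without animals 18 and 22 at 3 h (Cxcl12), where 24 of 19036 probe sets were called. The second Il1a probe set reversed the first, with 0.67, 0.81 and 1.18 at 3 h, 6 h and 24 h, -0.90 at 144 h, 1.09 between the air groups and -2.07 for the difference of effects, and the second Tnf probe set gave -0.26 at 3 h. Cxcl1 from 3 h to 6 h reversed to 0.24 with RNA integrity as a covariate and to 0.21 over the same arrays without it. Those arrays leave out H2S animals 5 and 6 of 3 h (8.58 and 8.56) and animal 9 of 6 h (4.66), so animals 3 and 4 were set against 8 and 10. Why the probe sets of a gene differed was not tested. Of 1782 values of single members, 1768 kept their side of the threshold or moved within the spread, and 208 uncalled values differed in sign. In the exact permutation test alone, 3 passed 0.05 (Il1a at 24 h, Sod2 at 144 h, Il1b from 6 h to 24 h, each with p = 0.0286). This p only restates non-overlap, seen in 3.79%, 5.93% and 6.53% of all probe sets in these comparisons. Nothing is read from Il1a among them, as it passed the filter only through animals 17, 18 and 25. Signals near background limit Il1a, Il6, Tnf and Cxcl2. Ccl2 and Cxcl1 are limited as well, as they exceeded their array's median on only 5 and 7 of 23 arrays.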
